A study of Mus musculus with 8 samples.

Results

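The comparison described here is the addition of prostaglandin E2 (PGE2) to diclofenac in GHMT-transduced mouse tail-tip fibroblasts. Its members are the GHMT/diclofenac/PGE2 array and the GHMT/diclofenac array of TTF set 1, which are 2 of the 8 arrays of the series, and the values compared are those of 22206 transcript clusters. Every culture consisted of postnatal tail-tip fibroblasts (TTFs) that had been transduced by retrovirus with GHMT (Gata4, Hand2, Mef2c and Tbx5), the factors that turn part of a fibroblast culture into cardiomyocyte-like cells. In set 1, GHMT cells received DMSO as vehicle, diclofenac, diclofenac with PGE2, or an antagonist of the PGE2 receptor EP4. In set 2, the GHMT and EP4 antagonist cultures are used here, and the TGFb and Wnt inhibitor cultures are not. Compounds were added with the retroviruses. The labels used here state neither doses, nor which EP4 antagonist was used, nor when cells were harvested. RNA came from whole cultures, so more cells of a kind and more RNA per cell cannot be told apart.

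Diclofenac blocks the cyclooxygenases, the enzymes that start prostaglandin synthesis from arachidonic acid. PGE2 acts on 4 receptors, EP1 to EP4, of which EP2 and EP4 raise cyclic AMP (cAMP) through the G protein Gs. cAMP activates protein kinase A and the transcription factor CREB, and phosphodiesterases (PDEs) break it down again. In fibroblasts PGE2 is known as a regulator of inflammation, matrix production and proliferation. Adding PGE2 from outside in the presence of diclofenac asks which changes under diclofenac depend on this product of the enzymes.

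Levels are log2 values, so a difference of 1 is 2-fold. Each condition had 1 array, so no difference below has a replicate check of its own. The 95th percentile over the 23 background probe sets of an array set its background level (5.99 for diclofenac, 5.80 for diclofenac/PGE2), and a gene is called at background when it lay at or below that level. Of the clusters, 43.8% lay above background in the diclofenac array and 45.3% in the diclofenac/PGE2 array, with medians of 5.29 and 5.28. Of 25 fibroblast identity genes measured, 20 lay above background in both arrays. By contrast, all 15 macrophage and leukocyte markers, 12 of 13 endothelial and 14 of 16 keratinocyte and epithelial markers lay at background in both. So did 9 of 15 adipocyte markers, but only 5 of 19 smooth muscle markers. The transduced factors were alike in both arrays, with Mef2c at 19.26 and 19.27, Tbx5 at 14.94 and 15.16, and Hand2 at 12.39 and 12.64. The Gata4 cluster lay at background in both (4.24 and 4.44), and whether it detects the transduced Gata4 is not known here.

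With PGE2, 4 phosphodiesterase genes of 20 measured were at least 2-fold higher. Among 40 cardiac sarcomere genes, 14 were at least 2-fold lower, 13 of them above background. The gene with the largest difference above background was Myh6, which encodes cardiac alpha-myosin heavy chain and was 18.8-fold lower with PGE2. The gene with the largest positive difference whose clusters lay above background in both arrays was Pde4b, a phosphodiesterase that degrades cAMP, which was 10.6-fold higher. At 2-fold or more, 188 transcript clusters were higher with PGE2 (0.847% of all) and 291 were lower (1.31%). Among the 10189 clusters with the higher of the 2 arrays above background, 160 were higher (1.57%) and 247 lower (2.42%), together 407 (3.99%). Of these, 24 and 28 differed by 4-fold or more. The lower array lay at background in 51 of the 160 and 46 of the 247, where the fold is a bound that can be under 2. Counts at 2-fold, here and in the lists below, use the values without this bound. Over all clusters the differences had a standard deviation of 0.392, against 0.097 for the 23 background probe sets and 0.912 for 5222 negative control probe sets, of which 18.5% were 2-fold apart.

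**Figure D1:**
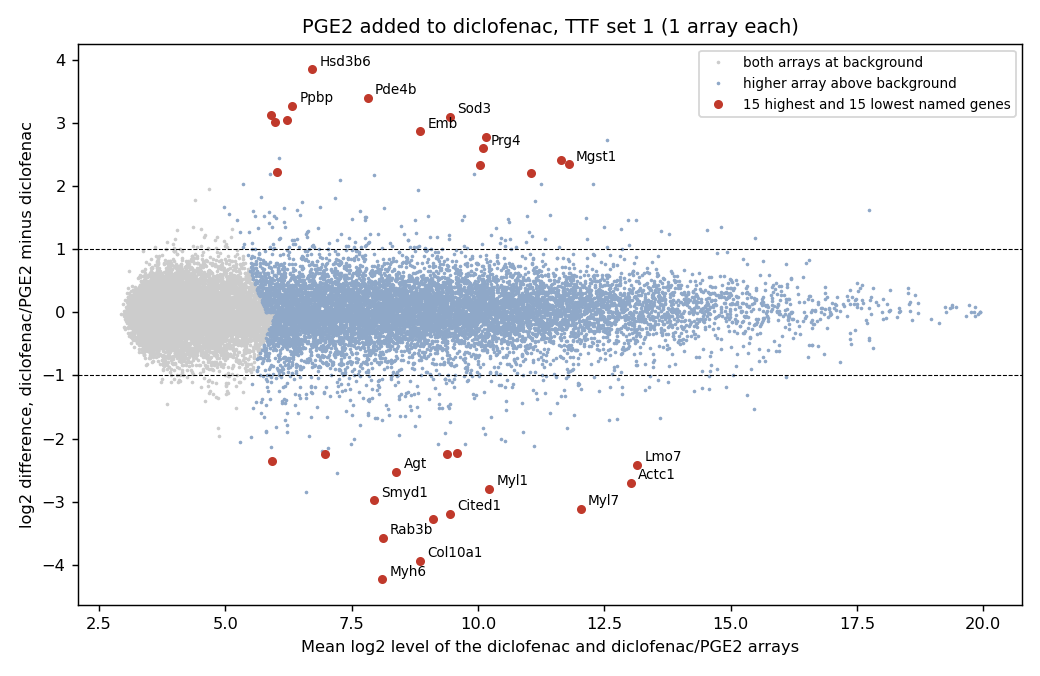
Each point is 1 of 22206 transcript clusters, with the mean log2 level of both arrays on the horizontal axis and the log2 difference, diclofenac/PGE2 minus diclofenac, on the vertical axis; dashed lines mark 2-fold. Grey points lay at background in both arrays, and red points are the 15 highest and 15 lowest named genes, from Myh6 at -4.23 to Hsd3b6 at 3.85.

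A spread for single arrays can only be borrowed from the conditions that had an array in each set, GHMT and the EP4 antagonist, on the assumption that the lone arrays vary alike. The standard errors given with ± below are borrowed in this way, from a limma fit with the TTF set as a block. They rest on 1 residual degree of freedom before moderation. That degree of freedom is how far EP4 antagonist minus GHMT differed between the TTF sets. The ± therefore holds no spread between cultures with diclofenac or with PGE2. It is smallest in genes where the sets had similar EP4 antagonist differences, at 0.28 for Smyd1 and Ryr2 against 0.64 for Rab3b. A small ± is thus no sign of a precise PGE2 difference. By this fit 0 of the 22206 clusters passed an adjusted p of 0.05 (0%), with 1041 at an unadjusted p under 0.05 and a smallest adjusted p of 0.2. Without the block 0 passed (0%), with 107 unadjusted. With a trend and robust prior 12 clusters passed by limma with Benjamini-Hochberg adjustment (0.054%). The 11 with a gene symbol were Pde4b, Prg4 and Emb, which were higher, and Myh6, Myl7, Myl1, Smyd1, Col10a1, Cited1, Lmo7 and Spon1, which were lower (adjusted p 0.0244 to 0.0363). After quantile normalization of the arrays 50 passed in the fit with the block (0.225%), 19 higher and 31 lower. Differences are therefore described below as levels in these arrays, without a call.

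Among the genes listed for prostaglandin synthesis, transport and breakdown, relatives of such enzymes included, 12 of the 13 above background had a positive difference. Their median was 0.50, against 0.03 over all clusters above background. Of the 25 measured in this group, 3 were at least 2-fold higher and 0 lower, beside the 2.16% of all clusters that were 2-fold apart in either direction. Mgst1, a microsomal glutathione transferase of the family that includes PGE synthase, was at 10.62 with diclofenac and 12.97 with PGE2, while GHMT was at 11.10 and the EP4 antagonist at 10.50. Ptges, the inducible PGE synthase that works downstream of cyclooxygenase-2, was at 7.18 and 8.36, with GHMT at 7.45 and the EP4 antagonist at 6.81. In both genes the PGE2 array lay above the other 3 arrays of the set. Hpgd, the enzyme that inactivates prostaglandins, was at background with diclofenac (5.99) and at 7.28 with PGE2, at least 2.44-fold higher. Ptgs2, the gene of cyclooxygenase-2, differed by 0.56 ± 0.36 (9.47 and 10.03).

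Of 10 prostanoid receptor genes, including the receptor-associated Ptgfrn, 7 lay at background in both arrays, among them Ptger1, Ptger2 and Ptger3, the genes of EP1, EP2 and EP3. Ptger4, which encodes EP4, was the one EP receptor gene above background in these 2 arrays, at 6.50 with diclofenac and 7.60 with PGE2 (1.10 ± 0.28, 2.14-fold). GHMT lay at 6.65 and the EP4 antagonist at 6.34, both near the diclofenac array. Ptgfr, the receptor for prostaglandin F2alpha, was at background in the other 3 arrays of the set (4.48 to 5.04) and at 7.49 with PGE2, at least 2.82-fold higher than with diclofenac. Both receptor transcripts were thus highest in the array with PGE2 among the 4 of the set, while GHMT of set 2 lay at 7.49 for Ptger4 and 8.12 for Ptgfr.

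Of 30 genes of the cAMP machinery, such as adenylyl cyclases, protein kinase A subunits, CREB and its coactivators, 21 lay above background and 0 were 2-fold apart, with a median of -0.11. The widest were Grk5, a kinase that desensitizes receptors (0.93), Creb1 (0.68) and Pkig, an inhibitor of protein kinase A (-0.57). Of 20 phosphodiesterases, 11 lay above background, and 4 of these were at least 2-fold higher and 1 was lower, where 1.57% of all clusters above background were higher and 2.42% lower. Pde4b was at 6.12 with diclofenac and at 9.52 with PGE2 (3.40 ± 0.28), with GHMT at 8.56 and the EP4 antagonist at 5.33, which is at background. Pde10a (8.24 and 9.77), Pde7b (7.02 and 8.53) and Pde3b (8.84 and 10.00) were 2.89-fold, 2.85-fold and 2.23-fold higher. Each of these genes was highest in the array with PGE2 and lowest in that with the EP4 antagonist, with diclofenac next. Pde2a, a phosphodiesterase that cyclic GMP stimulates, had the opposite order, at 6.85 with diclofenac, 7.22 with the EP4 antagonist, 6.21 in GHMT and at background with PGE2 (5.41), at least 2.07-fold lower than with diclofenac.

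Known targets of cAMP and CREB stood on both sides. Of 43 measured, 31 lay above background, and of these 8 were at least 2-fold higher and 4 lower, with a median of 0.16. Over all clusters above background 1.57% were higher and 2.42% lower. The 8 higher ones were the 4 phosphodiesterases just named, Ereg, the growth factor epiregulin (1.26), and the Nr4a family of immediate early nuclear receptors. Nr4a1 was at 6.86 with diclofenac and 8.04 with PGE2, and Nr4a2 at 7.24 and 8.49. Nr4a3 was at background with diclofenac (4.92) and at 7.14 with PGE2, at least 2.21-fold higher. All 3 Nr4a genes were highest in the array with PGE2 among the 4 of the set. Other cAMP-responsive early genes were under 2-fold apart, with Fos at -0.11, Junb at 0.50, Sik1 at 0.05 and Per1 at 0.28. The 4 lower ones were Ppargc1a, a coactivator of mitochondrial genes (at background with PGE2, at least 2.71-fold), Hbegf, an EGF-like growth factor (-1.32), the cytokine Lif (at background with PGE2, at least 1.96-fold) and Egr1, an immediate early zinc finger factor (-1.06).

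**Figure D2:**
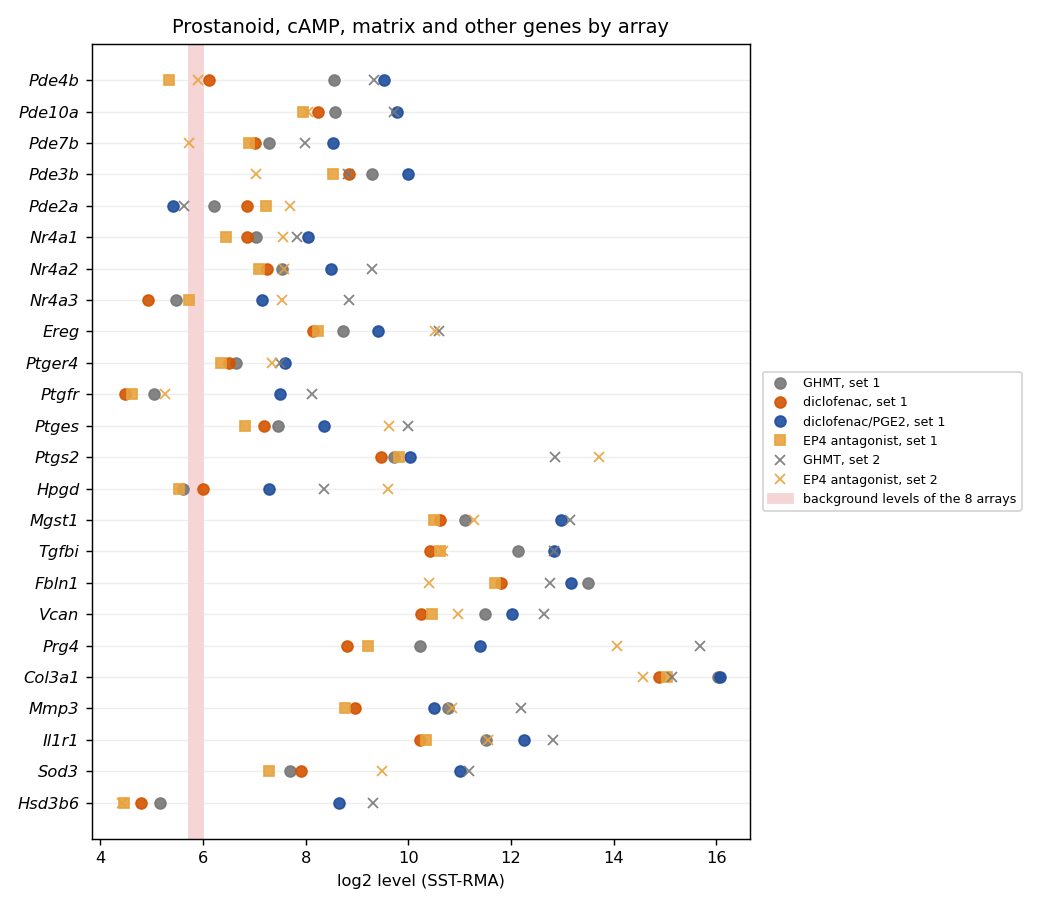
Log2 level (horizontal axis) of 24 genes in 6 arrays: GHMT, diclofenac, diclofenac/PGE2 and EP4 antagonist of set 1 (filled symbols) and GHMT and EP4 antagonist of set 2 (crosses); the shaded band spans the background levels of the 8 arrays. In Pde4b, Tgfbi and Vcan the diclofenac and EP4 antagonist arrays of set 1 lie below GHMT and the diclofenac/PGE2 array lies above it, while Pde2a has the reverse order.

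Matrix genes of fibroblasts were among the largest positive differences, but the matrix lists as a whole were balanced. Of 40 matrix genes other than collagens, 4 were at least 2-fold higher and 5 lower, where 0.847% and 1.31% of all clusters were. The median over the 35 above background was 0.08. Tgfbi, a matrix protein that TGFb induces, was at 10.43 with diclofenac and 12.84 with PGE2 (2.41 ± 0.33), with GHMT at 12.14 and the EP4 antagonist at 10.61. Prg4, the lubricant proteoglycan of joints, was at 8.80 and 11.40 (6.06-fold), and Vcan, the large proteoglycan versican, at 10.25 and 12.02 (3.41-fold). Fbln1, a fibulin of elastic fibres and basement membranes, was at 11.81 and 13.17, the latter under GHMT (13.50). The 5 lower ones were Ccn3 (-2.01), Fbln5 (-1.15), Smoc2 (-1.06), Eln, the gene of elastin (-1.03), and Aspn (-1.02). Ccn3 set the PGE2 array apart from the whole set, at 9.44 against 11.45 to 11.78 in the other 3 arrays.

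Of 17 collagen genes above background, 1 was higher by 2-fold and 1 lower. Col3a1, a fibrillar collagen, was at 14.89 with diclofenac, 15.03 with the EP4 antagonist, 16.03 in GHMT and 16.07 with PGE2 (1.18 ± 0.31). Col1a1 differed by 0.20 and Col1a2 by 0.85. Col10a1, a collagen of hypertrophic cartilage, was 15.3-fold lower with PGE2, at 10.82 with diclofenac and 6.88 with PGE2, with GHMT at 7.28 and the EP4 antagonist at 9.21. Of 13 cartilage and bone markers, 10 lay at background in both arrays, Acan and Col2a1 among them. The other 2 above background had positive differences, with Sox9, a cartilage transcription factor, at 0.66 and the phosphatase gene Alpl at 0.59. Without Col10a1 the summed level of the list was 8.81 with diclofenac and 9.26 with PGE2 on the log2 scale. Among 21 fibroblast identity genes above background, 15 had a positive difference (median 0.44), and 5 were at least 2-fold higher. These were Dpt (6.22 and 8.32), a dermal matrix protein, Sfrp1 (1.46), Col3a1, the surface glycoprotein Thy1 (1.15) and the transcription factor Twist1 (1.07). Pdgfrb (-0.94) and Mfap5 (-0.79) had the most negative differences, and 0 members were 2-fold lower. Over all clusters above background 52.6% had a positive difference, 1.57% were at least 2-fold higher and 2.42% lower. Of the 26 matrix proteases and inhibitors, 5 were at least 2-fold higher, with Mmp3, the stromelysin, at 8.96 and 10.49 and its inhibitor Timp1 at 12.45 and 13.52, and 1 was lower, the protease Adamts1 (-1.01).

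Of 42 inflammatory genes, 6 above background were at least 2-fold higher with PGE2 and 2 were lower, where 1.57% and 2.42% of all clusters above background were. In both arrays 26 of the 42 lay at background, and 12 of the other 16 had a positive difference (median 0.435), as did 52.6% of all clusters above background. Il1r1, the signalling receptor for interleukin-1, was at 10.22 with diclofenac, 10.35 with the EP4 antagonist, 11.51 in GHMT and 12.26 with PGE2 (2.04 ± 0.28, 4.11-fold). Ppbp, the platelet basic protein chemokine, was at 7.96 with PGE2 and at background with diclofenac, at least 3.91-fold higher. Cxcl14 was at least 1.97-fold and the alarmin Il33 at least 1.65-fold higher by the same reckoning, and the monocyte chemokine Ccl7 was at 9.87 and 11.05. Cxcl12, the stromal chemokine that binds CXCR4, was lower, at 13.03 with PGE2 against 13.97 to 14.10 in the other 3 arrays of the set. Il6 differed by 0.29 and Ccl2 by 0.51, and Il1b and Tnf were at background in both.

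Some of the largest positive differences were in genes that diclofenac had left near their level in GHMT. Sod3, the extracellular superoxide dismutase, was at 7.69 in GHMT, 7.90 with diclofenac, 7.28 with the EP4 antagonist and 11.00 with PGE2, 8.57-fold above diclofenac. Hsd3b6, a steroid dehydrogenase, was at background in those 3 arrays (4.45 to 5.17) and at 8.64 with PGE2, at least 6.26-fold higher. Cd55, which protects cells from complement, was at 8.71 to 9.18 in the other arrays and at 11.02 with PGE2. Clu, the secreted chaperone clusterin, was at 16.60 to 17.03 and at 18.55. In these genes the PGE2 array lay above all other arrays of set 1, GHMT included. It did not lie above GHMT of set 2 in most of them, which was at 11.19 for Sod3, 9.31 for Hsd3b6, 10.95 for Cd55 and 18.69 for Clu. Mcpt8, a mast cell and basophil protease, was at background with diclofenac (4.70) and the EP4 antagonist (4.42), at 6.19 in GHMT and at 7.75 with PGE2, at least 3.38-fold above diclofenac. Of 18 mast cell and basophil markers, 16 lay at background in both arrays, Kit, Cpa3, Fcer1a and Ms4a2 among them, and without Mcpt8 the summed level of the list was 8.76 with diclofenac and 8.37 with PGE2. The other member above background, the mast cell protease Mcpt4, was lower with PGE2 (at least 1.73-fold). In set 2, Mcpt8 was at 12.26 in GHMT and 8.70 with the EP4 antagonist, and the summed level of the list without it was 8.88 and 8.60.

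In the contractile apparatus the differences ran the other way. Of 40 cardiac sarcomere genes, 14 were at least 2-fold lower with PGE2 and 0 higher, where 1.31% of all clusters were lower. Among the 28 above background, 13 were at least 2-fold lower, where 2.42% of all such clusters were. In 24 of the 28 the difference was negative (median -0.85). Myh6 was at 10.22 with diclofenac and 5.99 with PGE2 (-4.23 ± 0.49), with GHMT at 6.89 and the EP4 antagonist at 8.57. Myl7, the atrial regulatory light chain, was at 13.59 and 10.48 (-3.11 ± 0.30), and Actc1, cardiac alpha-actin, at 14.37 and 11.67 (-2.70 ± 0.43). GHMT lay between in both, at 11.42 and 12.72, and the EP4 antagonist beside diclofenac, at 13.30 and 14.36. In these 3 genes the array with PGE2 was thus the lowest of the set. The summed level of the 40 genes was 19.81 with diclofenac and 19.61 with PGE2, above GHMT (19.33), on the log2 scale.

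Proteins of the thin filament, the M-band and the thick filament followed with smaller differences. Tnnc1, the slow and cardiac troponin C, was at 13.59 with diclofenac and 11.90 with PGE2, close to GHMT (12.01). Mybpc3, cardiac myosin binding protein C, was at 10.18 and 8.66, with GHMT at 8.84. Myom1 (-1.38) and Myom2 (-1.50), which crosslink myosin filaments, Myl4, an atrial essential light chain (-1.29), Ldb3 (-1.23) and Myoz2 (-1.19) of the Z-disc, Trim63, a muscle ubiquitin ligase (-1.10), and the giant spring titin, Ttn (-1.01), were lower as well. In Myl4, Ldb3, Myoz2 and Ttn the PGE2 array still lay above GHMT, by 0.57, 0.38, 0.55 and 0.99. In Myom1, Myom2 and Trim63 it lay below GHMT (-0.63, -0.48 and -0.33). Smpx, a small muscle protein, was at 9.37 and 7.73. Myh7, the beta-myosin heavy chain, differed by -1.96 but lay at background in both arrays, as did Tnni3, cardiac troponin I, and Myl2, the ventricular light chain. Several abundant members were nearly level, with Tnnt2, cardiac troponin T, at 18.07 and 17.96, Tpm1 at -0.07, Des, the intermediate filament desmin, at 0.18 and Actn2, the Z-disc actinin, at -0.45.

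Promoter sequences were examined because 13 sarcomere genes above background were at least 2-fold lower and all 3 Nr4a genes at least 2-fold higher. RefSeq promoters (GRCm38.p6, 250 bases before to 50 after a transcript start) were found for 113 of the 144 named genes higher and 175 of the 229 lower. The cAMP response element TGACGTCA, which contains both of the shorter forms searched, was present in 0 of 13 promoter-matched genes of the 15 highest and 0 of 13 of the 15 lowest. It was present in 5.31% of the genes 2-fold higher, 3.43% of those lower, 3.74% of all named genes above background and 1.79% of all 32851 promoters. The short form, TGACG or CGTCA, was in 31.9%, 26.9%, 37.1% and 20.8%. The CArG box, bound by serum response factor, was in 2.65% of the genes higher, 5.71% of those lower and 1.75% of all named genes above background, and the MEF2 site, bound by MEF2 factors, in 0.885%, 7.43% and 1.87% (1.63% and 3.19% of all promoters). A gene counts when any of its promoters holds the motif, on either strand. The CArG box and the MEF2 site were chosen after the values were seen, and a match is a description only. The promoters of 3 sarcomere genes that were lower and of Nr4a2 are shown, with the CArG box of Actc1 and Myl7, the MEF2 site of Mybpc3 and the short forms of Nr4a2 in capitals. They lie at chr2:114052826-114053125 (minus strand), chr11:5898733-5899032 (minus), chr2:91117894-91118193 (plus) and chr2:57123954-57124253 (minus). The boxes begin 47, 61 and 90 bases before the start in Actc1, Myl7 and Mybpc3, and the Nr4a2 window holds 4 short forms. That window also holds a MEF2 site, left in lower case, and Nr4a2 was the 1 gene higher that had one.
Actc1: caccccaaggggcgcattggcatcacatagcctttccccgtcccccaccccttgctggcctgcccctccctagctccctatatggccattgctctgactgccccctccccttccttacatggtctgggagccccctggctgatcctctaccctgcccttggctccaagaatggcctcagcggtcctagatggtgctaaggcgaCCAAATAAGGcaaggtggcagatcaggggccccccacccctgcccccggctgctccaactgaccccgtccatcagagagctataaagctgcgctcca
Myl7: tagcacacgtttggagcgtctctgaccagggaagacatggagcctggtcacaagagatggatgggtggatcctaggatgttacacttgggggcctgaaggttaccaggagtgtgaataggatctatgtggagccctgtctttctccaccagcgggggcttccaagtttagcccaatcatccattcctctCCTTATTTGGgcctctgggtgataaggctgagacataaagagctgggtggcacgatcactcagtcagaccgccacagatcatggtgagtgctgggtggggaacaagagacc
Mybpc3: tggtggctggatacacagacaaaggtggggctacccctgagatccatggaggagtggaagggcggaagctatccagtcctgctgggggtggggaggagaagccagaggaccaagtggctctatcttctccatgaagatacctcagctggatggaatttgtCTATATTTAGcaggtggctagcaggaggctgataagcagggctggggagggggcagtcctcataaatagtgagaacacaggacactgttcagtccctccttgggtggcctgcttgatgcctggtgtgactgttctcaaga
Nr4a2: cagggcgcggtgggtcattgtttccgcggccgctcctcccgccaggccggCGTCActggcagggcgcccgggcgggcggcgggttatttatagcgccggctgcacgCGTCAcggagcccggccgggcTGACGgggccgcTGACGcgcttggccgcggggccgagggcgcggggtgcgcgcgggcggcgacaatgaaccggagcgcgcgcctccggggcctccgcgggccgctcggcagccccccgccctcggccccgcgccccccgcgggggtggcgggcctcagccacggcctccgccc

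**Figure D3:**
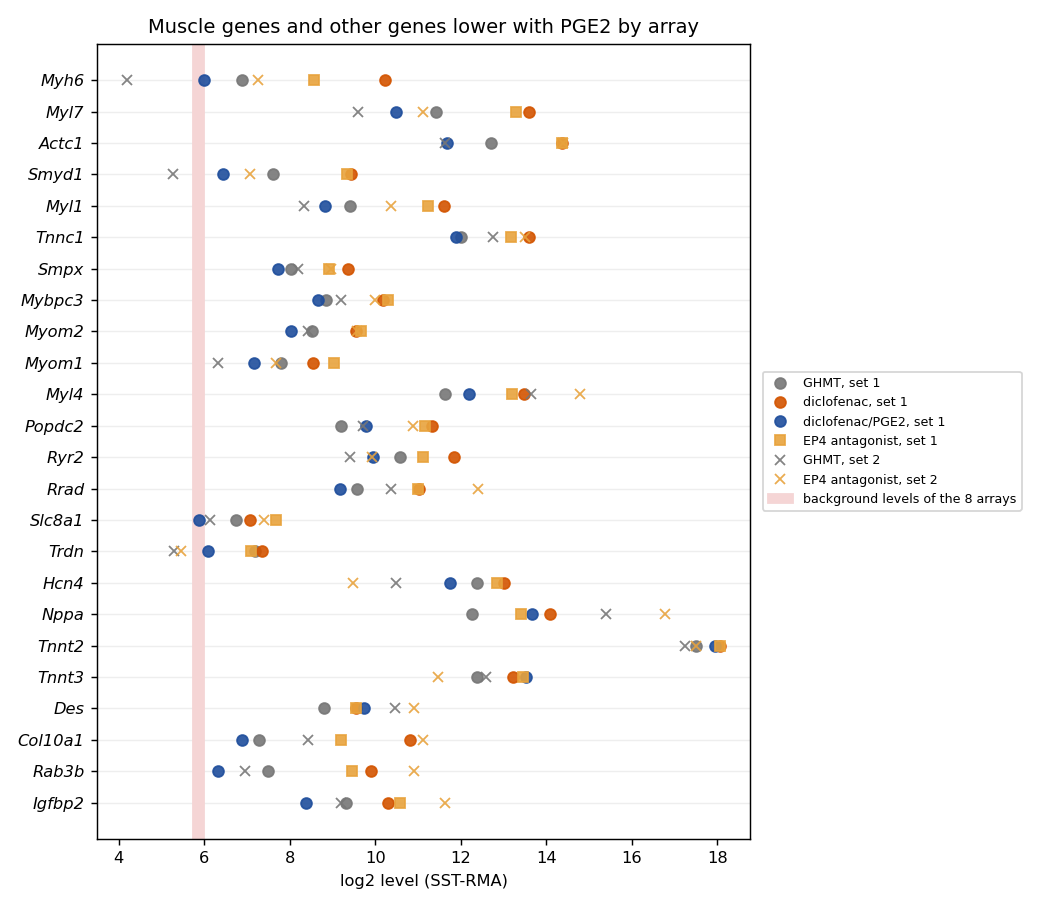
Log2 level (horizontal axis) of 24 genes, 21 of muscle and 3 others (Col10a1, Rab3b, Igfbp2), in the same 6 arrays and with the same background band. In Myh6, Myl7, Actc1, Smyd1 and Myl1 the diclofenac/PGE2 array is the lowest of set 1 and the diclofenac array the highest or level with the EP4 antagonist, whereas Nppa, Tnnt2, Tnnt3 and Des differ by less than 2-fold.

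Of 30 genes for calcium cycling and excitation, 5 were at least 2-fold lower and 0 higher, where 1.31% of all clusters were lower. Among the 20 above background 17 had a negative difference (median -0.74), as did 46.4% of all clusters above background. Ryr2, the channel that releases calcium from the sarcoplasmic reticulum, was at 11.84 with diclofenac, 11.13 with the EP4 antagonist, 10.58 in GHMT and 9.94 with PGE2 (-1.90 ± 0.28). Rrad, a small GTPase that restrains calcium channels, was at 11.02 and 9.18, and Slc8a1, the sodium-calcium exchanger, at 7.08 and 5.89. Trdn, the calcium release complex protein triadin (-1.27), and the pacemaker channel gene Hcn4 (-1.25) completed the 5. Gja1, the gap junction protein connexin 43, at -0.90, the calcium pump gene Atp2a2 at -0.58 and the calsequestrin gene Casq2 at -0.59 were under 2-fold.

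Of 26 cardiac regulators and hormones, 3 were at least 2-fold lower and 0 higher, where 1.31% of all clusters were lower. Among the 15 above background 2 were lower, and the median was -0.30. Smyd1, a muscle histone methyltransferase, was at 9.43 with diclofenac and 6.45 with PGE2 (-2.98 ± 0.28), under GHMT (7.60). Popdc2, a cAMP-binding membrane protein of heart muscle, was at 11.33 and 9.78, the latter above GHMT (9.19). Myocd, the coactivator myocardin, differed by -1.84 with both arrays at background. Nppa, the atrial natriuretic peptide, differed by less (-0.42). It was at 14.08 with diclofenac and 13.66 with PGE2, above GHMT at 12.26, so that its level with PGE2 lay nearer to diclofenac than to vehicle. Nkx2-5 and Isl1 lay at background in both arrays. Rbm20, the splicing factor that acts on titin transcripts, was among the 15 lowest genes (10.70 and 8.47).

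Genes known from skeletal muscle were divided. Myl1, a fast skeletal and fetal light chain, was at 11.62 with diclofenac and 8.82 with PGE2, and Myh8, the perinatal myosin heavy chain, was at 7.10 and at background with PGE2, at least 2.46-fold lower. Of 30 skeletal muscle markers 22 lay at background in both arrays, Myod1 and Myog among them. By their values, 3 of the others were at least 2-fold lower (Myl1, Myh8 and myoglobin, Mb) and 1 was higher, Tnnt1. As bounds, Mb was at least 1.99-fold lower and Tnnt1 at least 1.86-fold higher. Tnnt3, the fast troponin T, was at 13.22 and 13.52. The summed level of the list was 13.73 with diclofenac and 13.67 with PGE2. Among 19 smooth muscle markers 4 were at least 2-fold lower (Mcam, Ramp1, Itga8 and Mylk) and 0 higher. Their summed level was 19.16 with diclofenac and 19.03 with PGE2. Over all clusters 0.847% were at least 2-fold higher and 1.31% lower. Of 31 genes of oxidative and muscle energy metabolism, 5 were lower and 0 higher, among them Ppargc1a, the glycogen phosphorylase Pygm, the muscle phosphoglycerate mutase Pgam2 and myoglobin, Mb, while the median over the 23 above background was -0.14.

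**Figure D4:**
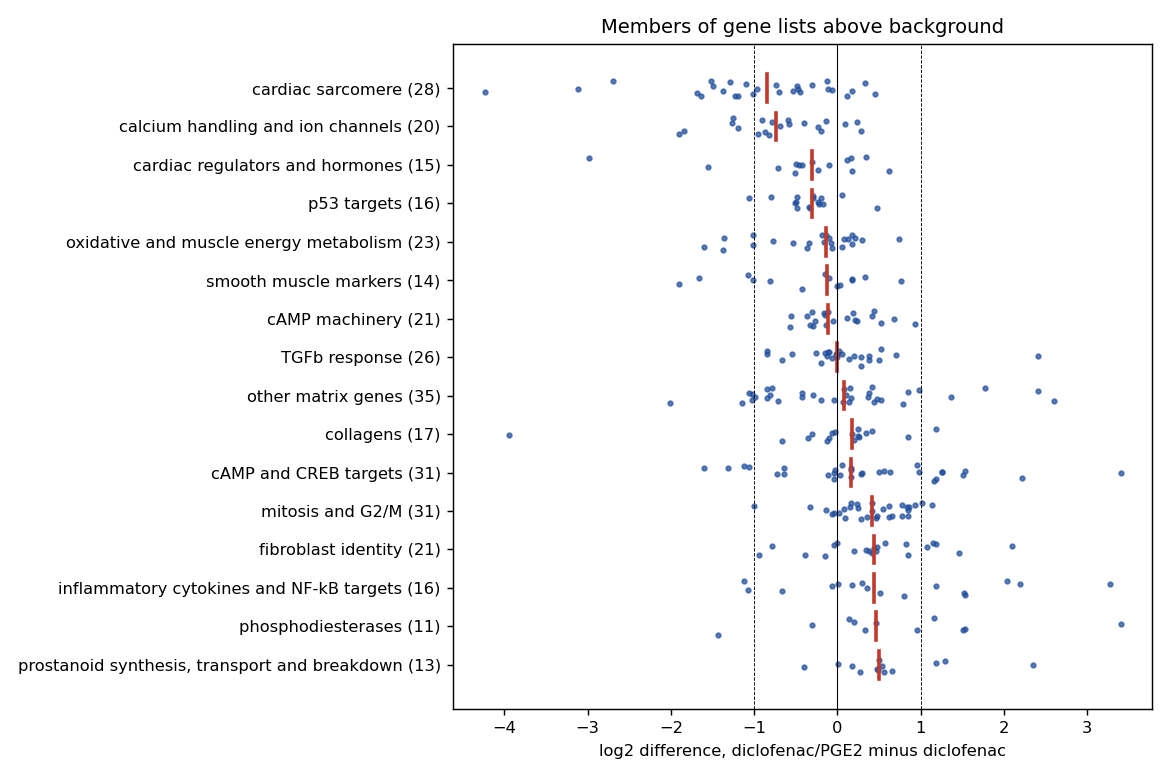
Log2 difference, diclofenac/PGE2 minus diclofenac (horizontal axis), of each list member above background (points, shifted vertically at random to separate them) for 16 gene lists, with the number of such members in parentheses and the median as a red bar. Medians run from -0.85 for the cardiac sarcomere to 0.50 for prostanoid synthesis, transport and breakdown, against 0.03 over all clusters above background, and dashed lines mark 2-fold.

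Outside these groups, the genes with the most negative differences included Rab3b, a GTPase of secretory vesicles, at 9.90 with diclofenac and 6.33 with PGE2 (-3.57 ± 0.64, 11.9-fold). Spon1, a secreted matrix adhesion protein, was at 10.74 and 7.46, and Cited1, a transcriptional coregulator, at 11.04 and 7.85. Agt, the angiotensin precursor, was at 9.65 and 7.12, and Lmo7, a LIM domain protein, at 14.36 and 11.94. For Spon1, Cited1 and Lmo7, GHMT lay between (9.32, 9.27 and 13.23), and the PGE2 array was again the lowest of the set. Emb, the cell surface protein embigin, was a counterpart on the other side, at 7.42 with diclofenac, 7.25 with the EP4 antagonist, 8.87 in GHMT and 10.29 with PGE2.

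Most cell cycle genes were under 2-fold apart, where 1.57% of all clusters above background were at least 2-fold higher and 2.42% lower. Of 31 genes of mitosis and G2/M above background, 26 had a positive difference (median 0.42), against 52.6% of all clusters above background, with 2 at least 2-fold higher (Ttk and Cenpe) and 1 lower (Cenpa). Mki67, the proliferation antigen, was at 12.12 with diclofenac, 12.29 with the EP4 antagonist, 12.77 in GHMT and 12.89 with PGE2. Among 25 genes of DNA replication above background, 17 had a positive difference (median 0.20), and Rrm2, a ribonucleotide reductase subunit, was the one 2-fold higher (10.47 and 11.68). Of 16 p53 targets above background, 14 had a negative difference (median -0.31), as did 46.4% of all clusters above background. Cdkn1a, the cell cycle inhibitor p21, was at 16.81 with diclofenac and the EP4 antagonist, 16.16 in GHMT and 16.30 with PGE2, and Mdm2 differed by -0.49. The one p53 target 2-fold apart was Polk, a DNA repair polymerase (-1.06).

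The EP4 antagonist and GHMT arrays were not used in the comparison of PGE2 with diclofenac, so they give a separate view of the same genes. Of the 407 clusters at least 2-fold apart with PGE2 and above background, 341 (83.8%) had the opposite sign with the EP4 antagonist in set 1, and 328 (80.6%) in set 2, which is another TTF set. Over all 10189 clusters above background, 56.3% and 54.8% had opposite signs. Of the clusters higher with PGE2, 30 were at least 2-fold lower with the EP4 antagonist in set 1 and 2 were higher, and in set 2 these numbers were 60 and 2. Of those lower with PGE2, 64 were 2-fold higher with the EP4 antagonist and 0 lower in set 1, and 71 and 7 in set 2. Among all 10189 clusters, the EP4 antagonist was 2-fold higher in 1.41% and lower in 1.13% in set 1, and in 1.74% and 1.99% in set 2. In set 1 all 4 arrays come from the same TTF set, so anything shared by the diclofenac and EP4 antagonist cultures against the other 2, other than the compounds, cannot be told apart.

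**Figure D5:**
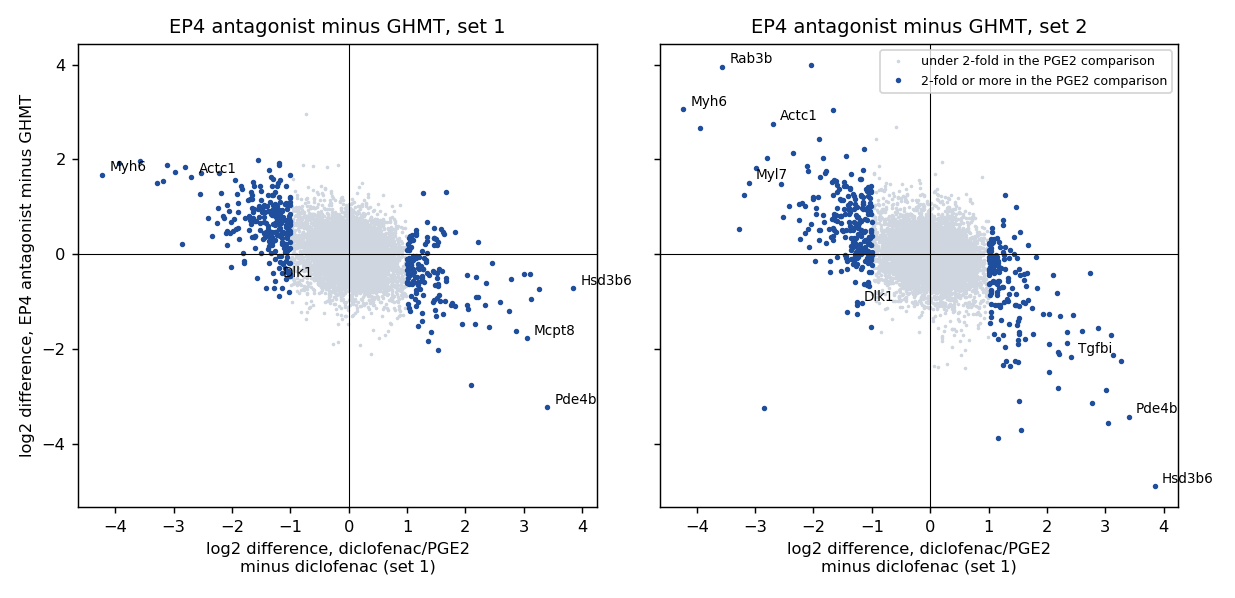
Each point is a transcript cluster above background, with the log2 difference of diclofenac/PGE2 minus diclofenac (set 1) on the horizontal axis and that of EP4 antagonist minus GHMT on the vertical axis, in set 1 (left) and set 2 (right). Dark points are the 407 clusters at least 2-fold apart with PGE2, most of which (83.8% left, 80.6% right) lie in the upper left and lower right quadrants.

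Of 144 named genes at least 2-fold higher with PGE2 and 229 lower, 16 and 25 were 2-fold or more opposite in both EP4 antagonist contrasts. In 2 named genes the sign was the same in all 3 contrasts, with 2-fold or more in at least 1 EP4 antagonist contrast. The matching share over all clusters was not counted. In 32 of the 41 opposite genes, 12 higher and 20 lower, all 6 arrays lay above background, and in the other 9 at least 1 array did not. Pde4b had a difference of 3.40 with PGE2 and of -3.43 with the EP4 antagonist in set 2, and its set 1 difference, with the EP4 antagonist array put at its background level, was -2.58 or larger in size. Of the genes measured in all 6 arrays, Emb (2.87, -1.62 and -1.55), Tgfbi (2.41, -1.53 and -2.16), Fbln1 (1.36, -1.82 and -2.35) and Mmp3 (1.53, -2.02 and -1.35) came first on this side, followed by Igfbp4, a binding protein of insulin-like growth factors, Il1r1, Tnmd and Slc6a17. Mcpt8, Plac1 and Aff2 fell short of 2-fold in at least 1 EP4 antagonist contrast once an array at background was set to its background level, with Mcpt8 at -0.21 in set 1. On the other side stood Rab3b (-3.57, 1.96 and 3.95), Col10a1 (-3.94, 1.93 and 2.67), Myl1 (-2.80, 1.84 and 2.03) and Actc1 (-2.70, 1.64 and 2.75). In Smyd1 and Myh6, GHMT of set 2 was at background, so their EP4 antagonist differences were 1.74 and 1.68 in set 1 and at least 1.18 and 1.35 in set 2. The VEGF receptor Flt1, Myl7, Rrad, the proteoglycan Cspg4, Hbegf and Igfbp2 came next. Mb, also lower with PGE2, fell short of 2-fold in all 3 contrasts with arrays at background set to their background level (-0.99, 0.90 and 0.33). Genes are ordered by the smallest of their 3 differences. The genes near their GHMT level under diclofenac had unlike values in the 2 sets, a difference that was not tested. Sod3 was at -0.41 with the EP4 antagonist in set 1 and -1.71 in set 2, while Hsd3b6 was at background in both arrays of set 1 and, in set 2, at 9.31 in GHMT and at background with the EP4 antagonist.

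Some genes had the same sign with PGE2 and in at least 1 EP4 antagonist contrast. Dlk1, a surface protein of precursor cells, differed by -1.26 with PGE2 and by -0.56 and -1.07 with the EP4 antagonist, with all 6 arrays above background. Hcn4 was lower with PGE2 (-1.25), at 0.48 with the EP4 antagonist in set 1 and at -1.01 in set 2. Hpgd was higher with PGE2 and also with the EP4 antagonist in set 2 (1.25).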

How the data were processed

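RNA of 8 cultures was hybridised to Clariom S Mouse arrays, 1 array per culture. The deposited values are log2 signals that the authors made with SST-RMA in Affymetrix Expression Console 1.4, per the submitters' processing notes and the series' design text. The table holds 28846 rows, of which 6640 control probe sets were left out and 22206 transcript clusters kept. Gene symbols came from the platform annotation (19572 clusters with 1 symbol, 2634 without one here), and the cluster with the highest mean stood for a symbol on several. No further normalization was applied. Precision is limited by how few arrays there are, and nothing in the labels says that the 2 TTF sets are separate animals.

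Differences are 1 array minus 1 array. The borrowed spread came from limma 3.58.1 in R 4.3.3 on all 8 arrays, with Benjamini-Hochberg adjustment. The fit was also run on simulated data with large changes. Lone arrays had the same spread as the others there, so that run cannot check the borrowing. A fold against an array at background is a bound against its background level. Of 946 list entries in 35 lists, 882 matched. The gene lists and the comparison were chosen with earlier results of these data known. Named genes were the 15 highest and 15 lowest, up to 5 members per list with the largest difference, a fixed set of genes, and up to 12 in each direction that were 2-fold opposite with the EP4 antagonist in both sets. Other list members named beside them were chosen after their values were seen. Alternatives were quantile normalization, centring, a filter on dim clusters, folds of 1.5 and 3, other fits and leaving out arrays.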

Additional observations from a re-analysis of the deposited data

How the results depend on the processing

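At 1.5-fold, 1099 clusters were higher and 1216 lower, and at 3-fold 40 and 69. The share with the opposite sign under the EP4 antagonist was 70.6% in set 1 and 67.7% in set 2 at 1.5-fold, and 91.4% and 94.3% at 3-fold. Quantile normalization, centring and the filter on dim clusters kept both counts within 1.5 times (160 to 222 higher, 247 to 318 lower), and no difference of the 168 named genes tried moved by more than 0.23. The limma count of 0 stayed 0 with the TTF set as a replicate block, was 12 when the blocked fit used a robust prior with a trend, and 50 with the block after quantile normalization. Leaving out 1 GHMT or EP4 antagonist array without the block gave 5 to 11. The cause of these changes was not tested. The 2 sets share only a number in the labels, and the between-set differences of GHMT and of EP4 antagonist correlated at 0.724 across clusters. No spread between cultures with PGE2 can be had from 1 array, and genes at background in both arrays have no measured difference.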

Other observations

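Growth factors and their binding proteins were divided. Of 45 measured, 3 were at least 2-fold higher with PGE2 and 6 lower, with a median of -0.26 over the 33 above background. Over all clusters 0.847% were higher and 1.31% lower. Fgf7, the keratinocyte growth factor, was at 7.70 with diclofenac and 8.80 with PGE2, while Igfbp7 was at 16.23 and 14.70. Of 18 genes of cholesterol synthesis, 0 were 2-fold apart in either direction, by a count with no test. Of 28 stress response genes, 1 was 2-fold lower, the pseudokinase gene Trib3 (9.11 and 7.78), and of 26 hypoxia and glycolysis genes Egln3, an oxygen-sensing hydroxylase, was lower (11.08 and 9.42) and P4ha2, a collagen hydroxylase, higher (1.05).

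Adhesion and neural genes stood on both sides. Chl1, a neural adhesion molecule, was at background with diclofenac (4.34) and at 7.47 with PGE2, at least 2.78-fold higher. Ntm, a related neural adhesion protein, was at 8.09 and 5.84. Tubb3, a neuronal tubulin, was at 7.03 and 8.50, and Stmn2, a neuronal stathmin, at 6.32 and at background with PGE2 (4.27). Of 12 Schwann and neural markers 9 lay at background in both arrays, Sox10 among them, and the summed level of the list was 8.77 with diclofenac and 9.56 with PGE2.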
